A study of Gorilla gorilla gorilla with 14 samples.

Results

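Basal intermediate progenitors (bIP) were compared with basal radial glia (bRG), the progenitor classes of the developing cortex that divide away from the ventricle. The assay was bulk ATAC-seq, where a transposase cuts exposed DNA and tags it for sequencing. The members are the libraries labelled bIP (n = 5) and bRG (n = 2), which make 7 of the 14 libraries of the series. All 7 came from gorilla cerebral organoids in culture week 8, derived from GC1, an induced pluripotent stem cell line, and sorted by flow cytometry. The series also holds apical radial glia (aRG, n = 3) and neurons (N, n = 4), used here for their levels and for the estimate of spread. By the library numbers in the labels, bIP replicates 4 and 5 and both bRG libraries belong to the second of 2 library series, and bIP replicates 1 to 3 to the first. No bRG library is of the first series, so values within the second series stand beside those of the full comparison.

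Basal radial glia keep a radial fibre and the stem cell programme of apical radial glia, driven by factors such as SOX2 and by Notch signalling. Basal intermediate progenitors have lost that fibre and divide to make neurons, under proneural basic helix-loop-helix (bHLH) factors and EOMES. They also display Notch ligands, which keep neighbouring cells in the radial glia state. Accessible promoters and distal elements are where such factors bind.

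All groups share the line, the culture week and a protocol as for fixed cells, with crosslinks reversed overnight after transposition. The sources used here do not give the markers that sorted bIP and bRG, organoids are a culture model, and 1 line stands for the species. Library totals lay between 12834983 and 26378687 counts in bIP and between 19685454 and 20288348 in bRG. Promoter regions took 32.8% to 37.6% of counts in bIP and 36.1% and 36.7% in bRG. Most replicate pairs differed by more than counting noise, while bIP replicates 1 and 2 came close to it. The chi-square per degree of freedom lay between 1.09 (bIP replicates 1 and 2) and 9.05 (bIP replicates 1 and 5) in bIP, and was 1.49 in bRG. Between bIP libraries of different series it lay between 5.97 and 9.05. Whether bIP replicates 1 and 2 are separate samples was not tested. No label states that libraries are of separate cultures, and the p-values therefore cover the spread among these libraries only, part or all of which may be technical. In bulk libraries, more cells with an open region and more opening per cell cannot be told apart.

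The labels were checked against marker promoters first. The EOMES promoter was higher in every bIP library than in both bRG libraries, and those of SOX2, VIM, NES and HES1 were lower. By the quasi-likelihood test of edgeR, SOX2 did not pass an adjusted p of 0.05 (0.141). VIM and HES1 did not pass within the second series (0.251 and 0.266), while NES did (0.0102). Of 20 measured promoters of the shared radial glia list 5 fell and 15 did not pass. On the bRG marker list 9 of 17 fell and 8 did not pass, HOPX and PTPRZ1 among them. The bRG libraries were not set apart from aRG. Between bRG and aRG 0 of 200931 regions (0.00%) passed an adjusted p of 0.05 by the quasi-likelihood test of edgeR, with 8197 at an unadjusted p under 0.05. None of the 17 measured promoters of the bRG marker list was called between them, or had an unadjusted p under 0.05. Among these genes of outer radial glia, MOXD1 averaged 14.3 ± 3.21 CPM in bRG (SD, n = 2) and 17.3 ± 3.96 CPM in aRG (SD, n = 3), SLCO1C1 8.91 ± 0.480 CPM in bRG and 9.76 ± 1.15 CPM in aRG, and FAM107A 15.7 ± 2.22 CPM in bRG and 17.1 ± 1.96 CPM in aRG.

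Accessibility differed between bIP and bRG at 73398 of 200931 regions (36.5%), with 41053 (20.4%) higher and 32345 (16.1%) lower in bIP. Distal regions, listed more than 1000 bp from their closest gene, differed far more often than promoter regions. Of 177609 distal regions 38236 (21.5%) were higher and 29729 (16.7%) lower, 38.3% in all. Of 20510 promoter regions 2232 (10.9%) were higher and 2080 (10.1%) lower, 21.0% in all. With library totals in place of TMM the promoter counts were 2050 higher and 2996 lower, and without bIP replicate 4 they were 1693 and 2184, so which direction was the more common at promoters depended on the scaling and on single libraries. It also turned with no filter (1916 higher and 2553 lower). Without bRG replicate 1 the promoter counts were 1437 higher and 1192 lower, and 21164 regions in all were lower. With 1 promoter region per protein-coding gene, 515 of 10099 (5.10%) were higher and 705 (6.98%) lower, 12.1% in all. These shares are the background against which each gene list below is read. The lists were chosen with earlier results of these data known, so a share above or below the background is a description and not a test. Some genes stand on more than 1 list and are counted in each, so the lists are not separate support.

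The step lay at the gene itself. Regions listed at distance 0 were higher in 7.80% and lower in 8.64% of cases, and regions 1 to 1000 bp away already reached 19.8% and 14.5%. At matched levels distal regions were called more often than promoters in each bin. Under 2 CPM (counts scaled to library size with TMM factors) 23.1% of promoters and 24.2% of distal regions were called. Among regions with a mean over 20 CPM, 5.42% of 7945 promoters were called, against 41.5% of 4004 distal regions. At 2 to 5 CPM the shares were 46.2% of promoters and 55.5% of distal regions, at 5 to 10 CPM 40.8% and 61.9%, and at 10 to 20 CPM 21.2% and 60.4%. Called distal regions that were higher had a median of 3.91 CPM in bIP and 1.18 CPM in bRG. Those that were lower had a median of 1.64 CPM in bIP and 4.26 CPM in bRG. In N the higher set had a median of 3.91 CPM and the lower set 1.13 CPM, while aRG stood at 1.12 and 4.36 CPM, close to bRG.

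**Figure D1:**
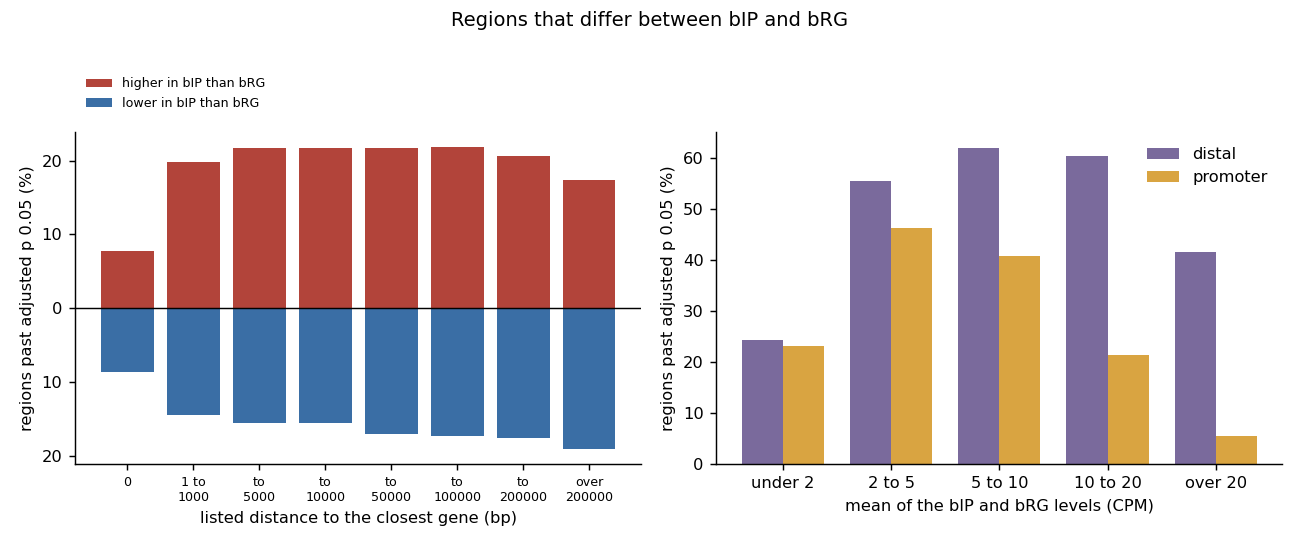
Share of regions past an adjusted p of 0.05 in bIP against bRG. Left: by listed distance to the closest gene in bp, with regions higher in bIP drawn upwards and lower ones downwards, so that the bars at distance 0 (7.80% and 8.64%) are the shortest. Right: by mean level in CPM, where 41.5% of distal regions but 5.42% of promoters over 20 CPM were called.

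In all, 25.7% of regions had all 5 bIP libraries above both bRG libraries and 22.8% had all 5 below, and 91.2% of the regions called higher and 92.1% of those called lower showed no overlap between the groups. Within the second series 38569 of 201113 regions were higher (19.2%) and 30901 lower (15.4%), 34.5% in all. There 10.6% of 20494 promoter regions were higher and 8.11% lower.

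Most promoters of proneural bHLH genes were more open in bIP. Of 11 measured genes of this list 7 rose and 4 did not pass, with a median log2 difference of 1.56 against 0.06 over 10099 protein-coding promoters. The gene with the largest difference on the list was NHLH1, a bHLH factor of newly committed neuronal precursors. Its promoter (chr1:130988036-130989211, gorGor6, distance 0) had 31.9, 29.8, 21.2, 30.2 and 35.8 CPM in bIP, against 3.08 and 3.70 CPM in bRG. Every bIP library was several times above both bRG libraries (log2 3.22 ± 0.31, adjusted p = 6.4e-08), and log2 3.28 ± 0.30 within the second series, adjusted p = 2.4e-08. In N it averaged 20.6 ± 4.35 CPM (SD, n = 4) and in aRG 3.09 ± 1.32 CPM (SD, n = 3), so it was open in bIP and N and nearly closed in both radial glia classes.

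NEUROD2 drives terminal differentiation of excitatory neurons. Its promoter (chr5:42347377-42348903) had 29.7, 29.7, 28.9, 37.2 and 44.7 CPM in bIP, against 5.81 and 4.83 CPM in bRG, with no overlap (log2 2.90 ± 0.33, adjusted p = 3.4e-07). NHLH2, the paralogue of NHLH1, had 6.28, 5.31, 7.98, 6.14 and 6.96 CPM in bIP, against 1.36 and 1.5 CPM in bRG 486 bp from the gene (log2 2.14 ± 0.33, adjusted p = 1.1e-05). The difference there was carried by low levels, with all bIP libraries under 8 CPM. NEUROD4, which acts early in neuronal commitment, had 12.1, 11.1, 9.02, 14.4 and 14.2 CPM in bIP, against 5.06 and 4.17 CPM in bRG (log2 1.56 ± 0.24, adjusted p = 1.0e-05). Unlike NEUROD2, NEUROD4 was lower again in N, at 5.49 ± 0.586 CPM (log2 −1.17 ± 0.17 for N over bIP, adjusted p = 1.9e-06). BHLHE22, a bHLH repressor of cortical neurons, showed the same order, with 14.2, 13.9, 12.5, 20.1 and 19.7 CPM in bIP, against 6.42 and 6.37 CPM in bRG (log2 1.79 ± 0.24, adjusted p = 2.5e-06) and 5.68 ± 2.07 CPM in N.

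Distal regions around these genes rose as well. Of 70 distal regions whose closest gene was on the proneural list, 43 (61.4%) were higher and 5 (7.14%) lower in bIP. All 5 distal regions of NEUROD1 were higher, as were 6 of 7 at NEUROD2, 10 of 11 at NEUROD4 and all 4 at NHLH1. Summed over its 11 regions, the NEUROD4 locus held 143, 145, 114, 180.4 and 176 CPM in bIP, against 47.8 and 44.0 CPM in bRG. Its top region (chr12:29962075-29963125, 13967 bp from the gene) differed by log2 3.15 ± 0.31, adjusted p = 7.6e-08. At NEUROD1 the 5 regions summed to 25.8, 26.7, 28.2, 29.2 and 39.6 CPM in bIP, against 8.54 and 7.59 CPM in bRG. The bRG sums were below every bIP sum at both loci. NEUROG2, the factor that starts the neuronal programme, went the other way. It has no promoter region listed, and its single distal region (chr4:110168192-110168670, 5455 bp away) fell, with 3.59, 3.69, 3.26, 9.28 and 6.62 CPM in bIP, against 13.9 and 13.1 CPM in bRG (log2 −0.89 ± 0.23, adjusted p = 0.00301).

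Promoters on the bIP marker list were either higher or did not pass. Of 19 measured promoters on the bIP marker list 11 were higher and 8 did not pass, and of its 134 distal regions 78 (58.2%) were higher and 6 (4.48%) lower in bIP. The list shares NHLH1, NHLH2, NEUROD4 and other genes with the bHLH list. EOMES, the T-box factor that defines the class, had 77.3, 72.1, 60.1, 95.7 and 110.0 CPM in bIP, against 45.3 and 46.3 CPM in bRG at its promoter (chr3:27772174-27776341, distance 0). All bIP libraries lay above both bRG libraries, and bIP replicates 4 and 5 above replicates 1 to 3 (log2 1.17 ± 0.21, adjusted p = 8.5e-05; log2 1.17 ± 0.27 within the second series, adjusted p = 0.00106). The promoter was thus already open in bRG, while the 4 distal regions of EOMES all rose, the top one (chr3:27784201-27784754) by log2 3.16 ± 0.41, adjusted p = 1.5e-06. INSM1, a zinc finger factor that drives delamination of basal progenitors in mouse, had 60.2, 58.2, 43.9, 64.9 and 74.2 CPM in bIP, against 31.1 and 23.1 CPM in bRG (log2 1.19 ± 0.26, adjusted p = 0.000732). Of its 28 distal regions 16 were higher and 2 lower.

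TAC3, which encodes the neurokinin B precursor, had 10.4, 11.3, 13.6, 13.6 and 16.0 CPM in bIP, against 2.07 and 2.11 CPM in bRG in a region 651 bp from the gene (chr12:27950821-27952157; log2 2.83 ± 0.28, adjusted p = 6.5e-08). The bIP libraries were all at least several times above bRG. PPP1R17, a phosphatase inhibitor marking intermediate progenitors, differed less, with 10.1, 9.90, 9.92, 9.28 and 13.9 CPM in bIP, against 6.22 and 5.86 CPM in bRG (log2 0.85 ± 0.24, adjusted p = 0.00715), although 5 of its 17 distal regions rose, the top one by log2 3.13 ± 0.41, adjusted p = 1.7e-06. Its adjusted p was above the threshold without bIP replicate 5 (0.0506), without bRG replicate 1 (0.0546) and without bRG replicate 2 (0.0807).

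Of 13 measured promoters on the Notch list 2 were higher, 1 was lower and 10 did not pass. DLL3, an atypical Delta ligand that acts within the cell, had 49.5, 49.6, 37.7, 34.8 and 47.8 CPM in bIP, against 8.70 and 7.03 CPM in bRG at its promoter (chr19:32153740-32155572), without overlap (log2 2.37 ± 0.26, adjusted p = 2.3e-07; log2 2.39 ± 0.31 within the second series, adjusted p = 1.1e-06). It averaged 16.6 ± 4.33 CPM in N, lower than in bIP (log2 −1.39 ± 0.18, adjusted p = 4.0e-07), and 9.30 ± 0.342 CPM in aRG. DLL4, a ligand that activates Notch receptors, had 16.1, 13.1, 12.2, 21.4 and 24.5 CPM in bIP, against 7.73 and 6.98 CPM in bRG (log2 1.45 ± 0.25, adjusted p = 4.0e-05). HES1, the repressor that Notch induces and that holds back proneural genes, had 27.4, 23.7, 21.4, 36.5 and 39.5 CPM in bIP, against 53.9 and 45.7 CPM in bRG (log2 −0.63 ± 0.22, adjusted p = 0.0244). All 5 bIP values were below both bRG values, but bIP replicates 4 and 5 were the closest to them. For HES1 the adjusted p was above the threshold without bRG replicate 1 (0.233), without bRG replicate 2 (0.057) and within the second series alone (0.266). These were the 3 called. HES5 and DLL1 have no promoter region listed.

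Some promoters of neuronal genes were more open in bIP than in bRG, and their levels in N varied. Of 17 measured genes of excitatory neurons 8 were higher and 1 lower, and of their 226 distal regions 66 (29.2%) were higher and 29 (12.8%) lower in bIP. Log2 differences of the 17 promoters ran from −1.72 to 3.11, and the genes named here are all among the higher ones. The list shares NEUROD2, NEUROD6 and BHLHE22 with the proneural list. MYT1L, a zinc finger repressor of non-neuronal genes, had 45.2, 40.1, 35.6, 49.5 and 58.0 CPM in bIP, against 5.66 and 6.14 CPM in bRG (chr2A:18434719-18436294; log2 3.11 ± 0.26, adjusted p = 3.5e-08). The same promoter averaged 43.3 ± 9.37 CPM in N, which differed from bIP by a log2 of −0.09 ± 0.16 (adjusted p = 0.678). STMN2, a regulator of microtubules in growing axons, had 34.5, 34.6, 32.0, 34.6 and 57.5 CPM in bIP, against 11.0 and 10.1 CPM in bRG (log2 2.00 ± 0.25, adjusted p = 7.4e-07), with bIP replicate 5 well above the others. In N the STMN2 promoter averaged 54.2 ± 9.13 CPM. TBR1, the T-box factor of deep layer neurons, had 49.1, 49.9, 42.9, 70.8 and 82.4 CPM in bIP, against 28.9 and 31.0 CPM in bRG (log2 1.21 ± 0.23, adjusted p = 0.000165). The distal regions of TBR1 summed to 35.2, 33.9, 24.7, 43.0 and 47.5 CPM in bIP, and to a mean of 7.87 CPM in N. NEUROD6, a bHLH factor of excitatory neurons, rose by 1.29 ± 0.22 (adjusted p = 4.0e-05). BCL11B, the factor by which the neurons of the series were sorted, had 24.1, 24.3, 18.7, 23.9 and 27.1 CPM in bIP, against 13.5 and 14.9 CPM in bRG (log2 0.66 ± 0.23, adjusted p = 0.023). Its adjusted p was above the threshold without bIP replicate 4 (0.149), without bIP replicate 5 (0.0937), without bRG replicate 1 (0.182) and without bRG replicate 2 (0.0904).

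Axon and synapse genes followed, with 9 of 16 measured promoters higher and 1 lower. The 9 became 5 without bIP replicate 4, 4 without bIP replicate 5, 4 without bRG replicate 1 and 3 without bRG replicate 2, so the count rests on single libraries. GRIA2, a glutamate receptor subunit, had 27.1, 25.4, 23.3, 33.8 and 45.5 CPM in bIP, against 13.5 and 11.9 CPM in bRG (log2 1.39 ± 0.25, adjusted p = 9.6e-05). DCC, the netrin receptor of growing axons, had 15.6, 16.5, 15.5, 21.0 and 25.7 CPM in bIP, against 8.09 and 9.04 CPM in bRG (log2 1.30 ± 0.23, adjusted p = 5.6e-05). Groups did not overlap at either gene. SYT4, a synaptotagmin, rose by 1.03 ± 0.25 and SEMA3C, a secreted guidance cue, by 1.13 ± 0.29 (adjusted p = 0.00214 and 0.00262). NTM, a neuronal adhesion molecule, was the exception and fell, with 6.47, 5.70, 4.16, 7.20 and 7.29 CPM in bIP, against 14.8 and 12.8 CPM in bRG (log2 −1.002 ± 0.24, adjusted p = 0.00148). The adjusted p was above the threshold without bRG replicate 2 for SEMA3C (0.0706). Of the 207 distal regions of this list 54 (26.1%) were higher and 31 (14.98%) lower in bIP, close to all distal regions.

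Among genes of neural chromatin regulation, the promoters of REST and SMARCD3 differed in opposite directions. REST, which silences neuronal genes outside neurons, had 31.6, 29.4, 25.9, 38.7 and 42.2 CPM in bIP, against 58.5 and 55.4 CPM in bRG (chr4:61309550-61312149; log2 −0.63 ± 0.21, adjusted p = 0.0185). SMARCD3, a BAF complex subunit, had 35.0, 32.0, 24.7, 43.8 and 59.7 CPM in bIP, against 17.2 and 14.2 CPM in bRG (chr7:143287411-143289299; log2 1.43 ± 0.29, adjusted p = 0.000296; log2 1.72 ± 0.29 within the second series, adjusted p = 3.5e-05). REST missed the threshold without bRG replicate 1 (0.134), without bRG replicate 2 (0.0798) and within the second series alone (0.167), given as adjusted p-values. Together with MYT1L, these were the called promoters of 13 measured, 2 higher and 1 lower. RCOR1, MYT1, ACTL6B, SS18L1 and PHF10 of this list were not measured. Of the 52 distal regions of this list 15 (28.8%) were higher and 1 (1.92%) lower in bIP.

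RNA-binding proteins of neurons gave 3 higher promoters of 10 measured and 7 that did not pass. CELF3, a splicing regulator, had 35.8, 35.5, 29.0, 37.7 and 47.3 CPM in bIP, against 12.8 and 10.6 CPM in bRG (log2 1.77 ± 0.24, adjusted p = 2.6e-06). ELAVL2, a neuronal Hu protein, had 62.1, 59.5, 51.4, 72.0 and 80.8 CPM in bIP, against 43.7 and 42.3 CPM in bRG (log2 0.69 ± 0.22, adjusted p = 0.0151). ELAVL2 missed the threshold without bIP replicate 4 (0.114), without bIP replicate 5 (0.0597), without bRG replicate 1 (0.0945) and without bRG replicate 2 (0.118), given as adjusted p-values. RBFOX3, a splicing factor known as the neuronal antigen NeuN, had 1.97, 1.62, 1.67, 1.77 and 2.75 CPM in bIP, against 0.607 and 0.328 CPM in bRG in a 194 bp region (log2 2.13 ± 0.42, adjusted p = 0.000188). Of the 93 distal regions of the list 37 (39.8%) were higher and 4 (4.30%) lower in bIP, and 19 of the higher ones lie at RBFOX3.

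**Figure D2:**
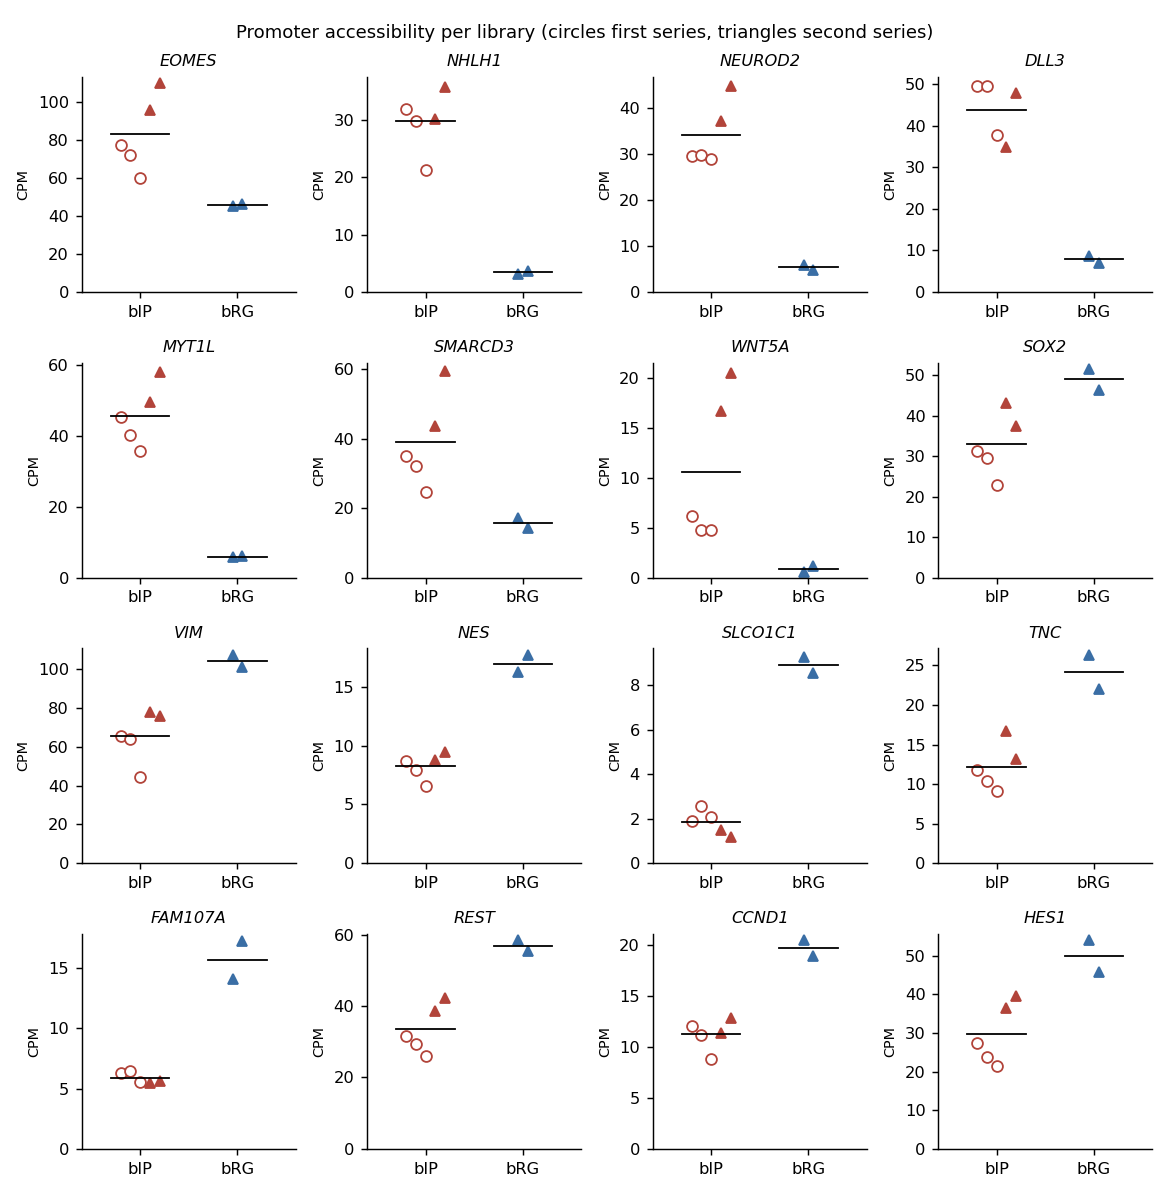
Accessibility in CPM at 16 promoters in each library, bIP left (red) and bRG right (blue), with group means as lines. Open circles are the first library series and filled triangles the second. At all 16 genes the groups do not overlap, and at WNT5A bIP replicates 4 and 5 (16.7 and 20.5 CPM) stand apart from replicates 1 to 3.

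At basal radial glia markers no called promoter was higher in bIP. Of 17 measured promoters on the bRG marker list 9 fell and 8 did not pass, with 6 lower without bRG replicate 1. SLCO1C1, a thyroid hormone and anion transporter, had 1.89, 2.59, 2.08, 1.5 and 1.16 CPM in bIP, against 9.25 and 8.57 CPM in bRG at its promoter (chr12:19702175-19702956; log2 −2.58 ± 0.30, adjusted p = 3.1e-07; log2 −2.73 ± 0.39 within the second series, adjusted p = 3.6e-06). Of its 9 distal regions 7 fell, and they summed to 22.9, 21.4, 16.6, 17.8 and 8.74 CPM in bIP, against 70.4 and 64.6 CPM in bRG. FAM107A, an actin-binding protein, had 6.28, 6.47, 5.55, 5.44 and 5.65 CPM in bIP, against 14.1 and 17.2 CPM in bRG (chr3:58517308-58519384; log2 −1.46 ± 0.23, adjusted p = 1.8e-05). PDGFD, a platelet-derived growth factor that promotes radial glia division in human cortex, had 17.4, 15.1, 11.4, 14 and 15.6 CPM in bIP, against 27.1 and 25.4 CPM in bRG (log2 −0.96 ± 0.21, adjusted p = 0.00072). The bIP libraries lay below both bRG libraries at the promoters of all 3 genes. Of the 9 distal regions of PDGFD 3 were higher and 1 lower, and within the second series 1 was higher and 2 lower. HEPACAM, a glial adhesion molecule, was close to closed in bIP, with 0.832, 1.04, 1.32, 1.02 and 0.531 CPM in bIP, against 2.38 and 2.76 CPM in bRG (log2 −1.58 ± 0.37, adjusted p = 0.00117).

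Other well known markers separated the groups less at the promoter. TNC, an extracellular matrix protein, had 11.7, 10.4, 9.09, 16.7 and 13.2 CPM in bIP, against 26.3 and 22.0 CPM in bRG (log2 −0.73 ± 0.20, adjusted p = 0.005). Its adjusted p was above the threshold without bRG replicate 1 (0.109). Of its 11 distal regions 5 fell, and their sums differed more, with 17.0, 17.8, 14.4, 17.4 and 8.31 CPM in bIP, against 75.2 and 63.5 CPM in bRG. The top distal region (chr9:85944795-85945985, 67457 bp away) differed by log2 −2.86 ± 0.28, adjusted p = 7.6e-08. HOPX, a homeodomain protein and the usual marker of outer radial glia, had 17.9, 16.3, 13.3, 13.3 and 12.2 CPM in bIP, against 23.2 and 18.5 CPM in bRG (chr4:61540799-61542332) and did not pass (log2 −0.60 ± 0.24, adjusted p = 0.0579). It was past the threshold with library totals (adjusted p = 0.00615), with loess offsets (0.0089), with no filter (0.0253), with a filter of 10 CPM (0.00477), with bIP and bRG libraries alone (0.00235) and with closest pairs summed (0.0419), so its call depends on the scaling, the filter and the libraries fitted. PTPRZ1, a receptor phosphatase, overlapped between groups, with 26.7, 22.5, 20.9, 28.0 and 32.0 CPM in bIP, against 30.2 and 24.9 CPM in bRG (log2 0.02 ± 0.21, adjusted p = 0.963). Of its 18 distal regions 6 fell and 3 rose. Over all 187 distal regions of the list, 19 (10.2%) were higher and 51 (27.3%) lower in bIP.

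Stem cell genes shared by all radial glia were lower in bIP at a few promoters and at many distal regions. Of 20 measured promoters of this list 5 fell and 15 did not pass, and without either bRG library 2 fell. Of 139 distal regions 18 (12.9%) were higher and 49 (35.3%) lower in bIP. Within the second series 1 promoter was higher and 2 lower, and of the 139 distal regions 12.9% were higher and 26.6% lower. SOX2, the stem cell factor, had 31.3, 29.6, 23.0, 43.2 and 37.5 CPM in bIP, against 51.7 and 46.4 CPM in bRG at its promoter (chr3:178123597-178125650), where the difference did not pass (log2 −0.39 ± 0.20, adjusted p = 0.141), though it did with library totals (adjusted p = 0.0135), with loess offsets (0.0181), with a filter of 10 CPM (0.00328) and with no series term (0.0368). Both of its distal regions fell, with sums of 12.8, 12.8, 9.23, 13.6 and 7.87 CPM in bIP, against 34.9 and 31.7 CPM in bRG, and the top one (chr3:178121384-178122255, 3156 bp away) by log2 −1.93 ± 0.27, adjusted p = 4.6e-06. In N the SOX2 promoter averaged 9.60 ± 1.56 CPM, far below bIP (log2 −1.80 ± 0.16, adjusted p = 1.4e-09).

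NES, the intermediate filament nestin, had 8.66, 7.90, 6.59, 8.80 and 9.47 CPM in bIP, against 16.2 and 17.7 CPM in bRG (log2 −0.91 ± 0.20, adjusted p = 0.000875). PROM1, the apical membrane protein prominin, had 23.5, 23.1, 19.8, 30.2 and 27.3 CPM in bIP, against 47.2 and 44.9 CPM in bRG (log2 −0.78 ± 0.19, adjusted p = 0.0016). Groups were clear of each other at both genes. VIM, the filament vimentin, had 65.9, 64.0, 44.6, 78.1 and 76.2 CPM in bIP, against 108 and 101 CPM in bRG (log2 −0.56 ± 0.21, adjusted p = 0.0411), and PAX6, the paired-box factor of cortical progenitors, had 8.63, 6.67, 4.72, 11.3 and 8.60 CPM in bIP, against 14.5 and 14.4 CPM in bRG (log2 −0.67 ± 0.24, adjusted p = 0.0292). Neither group overlapped the other at VIM or PAX6 either. An adjusted p above 0.05 was found without bIP replicate 1 for VIM (0.0533), without bIP replicate 2 for VIM (0.0574), without bIP replicate 5 for PAX6 (0.0645), without bRG replicate 1 for VIM (0.216) and PAX6 (0.136), without bRG replicate 2 for VIM (0.127) and PAX6 (0.128) and within the second series alone for VIM (0.251) and PAX6 (0.142).

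At NFIA and GLI3 distal regions fell while the promoter did not pass. At NFIA, a nuclear factor of gliogenesis, 15 of 33 distal regions fell and 2 rose. These regions summed to 247, 239.7, 191, 265 and 218 CPM in bIP, against 342 and 324 CPM in bRG, and the promoter log2 difference was −0.23 ± 0.20 (adjusted p = 0.403). At GLI3, the repressor of hedgehog targets in the dorsal forebrain, 12 of 31 fell and 1 rose, with sums of 157, 151, 149.9, 193 and 163 CPM in bIP, against 292 and 269 CPM in bRG. The promoter log2 difference of GLI3 was −0.23 ± 0.21 (adjusted p = 0.429). PAX6, whose promoter fell too, had 5 of 14 distal regions lower and 1 higher. Among other transcription factor genes of radial glia, SOX2 had 2 of 2 distal regions lower and LHX2 1 of 2, with none higher. NFIX, NFIB, SOX9 and EMX2 did not share this direction. NFIX, another nuclear factor, had 2 of 5 distal regions higher, and NFIB 3 of 13 higher and 3 lower. SOX9, a factor of glial fate, had 3 of 8 higher and 2 lower, and EMX2, a homeodomain factor of the dorsal forebrain, 2 of 12 higher and 1 lower.

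In the FGF and EGF receptor list 3 of 14 measured promoters were lower and 11 did not pass, and each of the 3 calls was lost within the second series. FGFR2, a receptor of radial glia, had 44.9, 46.1, 34.6, 52.2 and 49.7 CPM in bIP, against 75.4 and 72.7 CPM in bRG (chr10:116886826-116890003; log2 −0.56 ± 0.20, adjusted p = 0.0258). Its 17 distal regions summed to 114, 108, 95.0, 105 and 90.5 CPM in bIP, against 195 and 184 CPM in bRG, with 6 lower and 2 higher, the top one by log2 −2.73 ± 0.26, adjusted p = 5.4e-08. FGFR1 had 38.9, 37.2, 30.5, 35.8 and 35.4 CPM in bIP, against 57.0 and 52.8 CPM in bRG (log2 −0.65 ± 0.19, adjusted p = 0.00839). Its 5 distal regions went the other way, with 2 higher and 1 lower. They summed to 27.8, 27.1, 26.8, 40.3 and 50.7 CPM in bIP, against 22.6 and 26.3 CPM in bRG. ERBB4, a neuregulin receptor, fell by 0.59 ± 0.19 on the log2 scale (adjusted p = 0.015). Adjusted p-values stood above the threshold without bIP replicate 5 for FGFR2 (0.052), without bRG replicate 1 for FGFR1 (0.0974), FGFR2 (0.153) and ERBB4 (0.0907), without bRG replicate 2 for FGFR2 (0.107) and ERBB4 (0.0974) and within the second series alone for FGFR1 (0.0621), FGFR2 (0.124) and ERBB4 (0.123). Of the 114 distal regions of the list 16 (14.04%) were higher and 32 (28.1%) lower in bIP.

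Hippo pathway genes, which link cell contact to growth, had 3 of 9 measured promoters lower and 6 that did not pass. CCN1, a matricellular target of YAP and TEAD, had 24.5, 22.2, 16.9, 27.5 and 23.5 CPM in bIP, against 50.5 and 45.5 CPM in bRG (log2 −1.07 ± 0.21, adjusted p = 0.000207). LATS2, the kinase that inhibits YAP, had 14.9, 13.1, 8.53, 10.7 and 11.9 CPM in bIP, against 20.2 and 22.7 CPM in bRG (log2 −0.94 ± 0.23, adjusted p = 0.00175), and TEAD4, a partner of YAP on DNA, had 15.4, 15.9, 13.6, 11.0 and 10.6 CPM in bIP, against 22.6 and 18.8 CPM in bRG (log2 −0.89 ± 0.21, adjusted p = 0.00166). Both the target and the inhibitor thus fell, without overlap between groups. The adjusted p was above the threshold without bRG replicate 1 for TEAD4 (0.0522).

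Of BMP and ID genes 2 of 14 measured promoters fell and 12 did not pass. SMAD6, an inhibitor of BMP signalling, had 39.3, 37.0, 27.2, 45.5 and 44.7 CPM in bIP, against 60.3 and 57.2 CPM in bRG (log2 −0.58 ± 0.21, adjusted p = 0.0331). BMPR1B, a BMP receptor, had 11.5, 12.6, 9.64, 9.19 and 8.98 CPM in bIP, against 15.4 and 12.4 CPM in bRG, and its groups overlapped (log2 −0.72 ± 0.22, adjusted p = 0.00997). Calls were lost without bIP replicate 2 for SMAD6 (0.0529), without bRG replicate 1 for SMAD6 (0.182) and BMPR1B (0.176), without bRG replicate 2 for SMAD6 (0.117) and within the second series alone for SMAD6 (0.282) and BMPR1B (0.088). Around these genes 20 (14.6%) of 137 distal regions were higher and 41 (29.9%) lower in bIP. At BMPR1B, whose promoter fell, 13 of 54 distal regions were higher and 9 lower.

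The WNT list held the largest log2 difference among protein-coding promoters with at least 10 CPM and no overlap. WNT5A, a non-canonical WNT ligand, had 6.21, 4.79, 4.72, 16.7 and 20.5 CPM in bIP, against 0.556 and 1.17 CPM in bRG in a region 987 bp from the gene (chr3:55382994-55383803; log2 3.93 ± 0.48, adjusted p = 6.5e-07). The bIP libraries split by series, with replicates 4 and 5 nearer to N (24.2 ± 4.10 CPM) and replicates 1 to 3 lower, yet all above bRG. The difference was log2 4.41 ± 0.37 within the second series, adjusted p = 1.9e-08. SFRP2, a secreted WNT antagonist, had 10.5, 9.64, 6.38, 10.9 and 11.5 CPM in bIP, against 18.5 and 17.0 CPM in bRG (log2 −0.80 ± 0.23, adjusted p = 0.00634). NKD1, an intracellular antagonist, had 3.06, 3.56, 3.47, 4.07 and 5.07 CPM in bIP, against 7.38 and 8.76 CPM in bRG (log2 −0.93 ± 0.25, adjusted p = 0.00388). These were the 3 called of 12 measured promoters, 1 higher and 2 lower. The threshold was missed without bRG replicate 1 for SFRP2 (0.0746), without bRG replicate 2 for NKD1 (0.0717) and within the second series alone for SFRP2 (0.056).

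No promoter of the 10 measured hedgehog genes was called by edgeR or DESeq2, and 1 was lower at an unadjusted p under 0.05. Of their 82 distal regions 6 (7.32%) were higher and 25 (30.5%) lower in bIP, with 12 of the 25 lower ones at GLI3. GLI2, an activator of the pathway, had 4 of 15 distal regions higher.

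Of 16 measured promoters of genes of matrix, adhesion and cell shape 6 were lower in bIP, 1 was higher and 9 did not pass, with 4 lower without bRG replicate 1. VCAM1, an adhesion molecule of neural stem cells, had 4.62, 3.75, 2.98, 2.83 and 2.13 CPM in bIP, against 13.4 and 10.8 CPM in bRG (chr1:95850988-95852411; log2 −2.19 ± 0.26, adjusted p = 5.6e-07). ITGB5, an integrin subunit, had 13.1, 13.3, 8.39, 9.02 and 10.3 CPM in bIP, against 17.8 and 17.1 CPM in bRG (log2 −0.87 ± 0.22, adjusted p = 0.00232), and a distal region 3626 bp away (chr3:121452771-121453871) by log2 −2.54 ± 0.27, adjusted p = 1.4e-07. TNC and ITGB5, both among the lower ones, are also on the bRG marker list. DOCK1, an activator of RAC, had 9.88, 8.22, 8.05, 10.8 and 11.8 CPM in bIP, against 19.5 and 18.8 CPM in bRG (log2 −0.90 ± 0.22, adjusted p = 0.00203). LAMB1, a laminin chain, was the one that rose, with 20.02, 18.5, 17.6, 19.7 and 28.7 CPM in bIP, against 11.5 and 13.8 CPM in bRG (log2 0.88 ± 0.23, adjusted p = 0.00295). An adjusted p above 0.05 was found without bRG replicate 1 for LAMB1 (0.0764).

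Apical polarity and delamination genes had 3 of 11 measured promoters lower and 8 that did not pass. These were PROM1, CRB2 and ANXA2. CRB2, a Crumbs protein of the apical domain, had 28.3, 27.6, 22.3, 36.0 and 36.6 CPM in bIP, against 53.8 and 50.1 CPM in bRG (log2 −0.68 ± 0.20, adjusted p = 0.00846). ANXA2, a membrane-binding annexin, had 9.35, 9.84, 6.94, 19.4 and 20.7 CPM in bIP, against 28.8 and 30.1 CPM in bRG, with bIP replicates 4 and 5 above replicates 1 to 3 (log2 −0.75 ± 0.21, adjusted p = 0.006). Adjusted p-values stood above the threshold without bRG replicate 1 for CRB2 (0.092), without bRG replicate 2 for ANXA2 (0.0623) and within the second series alone for CRB2 (0.125) and ANXA2 (0.0966).

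Glial metabolism genes had the largest share of lower distal regions among the lists with at least 40 such regions. Of 44 distal regions of the astroglial metabolism list 3 (6.82%) were higher and 19 (43.2%) lower in bIP, against 21.5% and 16.7% of all distal regions. Of 12 measured promoters 4 fell and 8 did not pass, with 2 lower without bRG replicate 1. BBOX1, the last enzyme of carnitine synthesis, had 3.56, 3.17, 1.87, 3.85 and 2.42 CPM in bIP, against 19.8 and 18.1 CPM in bRG (chr11:16362778-16364595; log2 −2.54 ± 0.29, adjusted p = 2.6e-07; log2 −2.59 ± 0.35 within the second series, adjusted p = 1.7e-06). ACSBG1, an acyl-CoA synthetase also on the bRG marker list, had 1.63, 1.88, 1.73, 0.619 and 0.676 CPM in bIP, against 5.21 and 2.48 CPM in bRG (log2 −2.52 ± 0.36, adjusted p = 4.0e-06), with bRG replicate 1 well above replicate 2. Levels of AQP4, the water channel of astrocytes, were low, with 0.568, 1.10, 0.971, 0.619 and 0.338 CPM in bIP, against 1.97 and 1.22 CPM in bRG in a 180 bp region (log2 −1.42 ± 0.39, adjusted p = 0.00481). S100B, a calcium-binding protein of glia, had 4.81, 4.60, 2.91, 1.37 and 1.84 CPM in bIP, against 4.40 and 3.42 CPM in bRG (log2 −1.08 ± 0.29, adjusted p = 0.00452). Its groups overlapped, since bIP replicates 1 and 2 were above both bRG libraries and replicates 4 and 5 below. The adjusted p was above the threshold without bRG replicate 1 for AQP4 (0.137) and S100B (0.0874).

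The calls at cell cycle promoters were not stable. Of 17 measured, 3 were lower and 1 higher, and each of the 4 was lost without bRG replicate 1. CCND1, the cyclin of early G1, had 12.1, 11.2, 8.81, 11.4 and 12.8 CPM in bIP, against 20.5 and 19.0 CPM in bRG (chr11:53589316-53590150; log2 −0.80 ± 0.21, adjusted p = 0.00312). CDKN1C, a cell cycle inhibitor, had 34.1, 36.4, 27.9, 42.6 and 53.9 CPM in bIP, against 27.1 and 27.5 CPM in bRG (log2 0.63 ± 0.24, adjusted p = 0.0461). PLK1, a mitotic kinase, had 12.8, 14, 10.2, 10.2 and 8.26 CPM in bIP, against 15.3 and 13.3 CPM in bRG, with overlap between groups (log2 −0.63 ± 0.21, adjusted p = 0.022). AURKB, another mitotic kinase, had 12.6, 13, 8.05, 13.2 and 10.1 CPM in bIP, against 17.7 and 14.8 CPM in bRG (log2 −0.57 ± 0.23, adjusted p = 0.0499). MKI67, the proliferation marker, had 14.6, 13.9, 10.2, 13.9 and 13.4 CPM in bIP, against 18.0 and 19.0 CPM in bRG and did not pass (log2 −0.47 ± 0.21, adjusted p = 0.0886), although it did with library totals (adjusted p = 0.00557), with loess offsets (0.00203), with no filter (0.0416) and with a filter of 10 CPM (0.000544). Calls were lost without bIP replicate 1 for CDKN1C (0.0573) and AURKB (0.06), without bIP replicate 2 for CDKN1C (0.0638) and AURKB (0.0552), without bIP replicate 3 for AURKB (0.0531), without bIP replicate 4 for CDKN1C (0.191), without bIP replicate 5 for CDKN1C (0.195), PLK1 (0.0664) and AURKB (0.112), without bRG replicate 1 for CCND1 (0.0505), CDKN1C (0.204), PLK1 (0.204) and AURKB (0.34), without bRG replicate 2 for CDKN1C (0.182), PLK1 (0.0575) and AURKB (0.0876) and within the second series alone for PLK1 (0.0752) and AURKB (0.186).

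**Figure D3:**
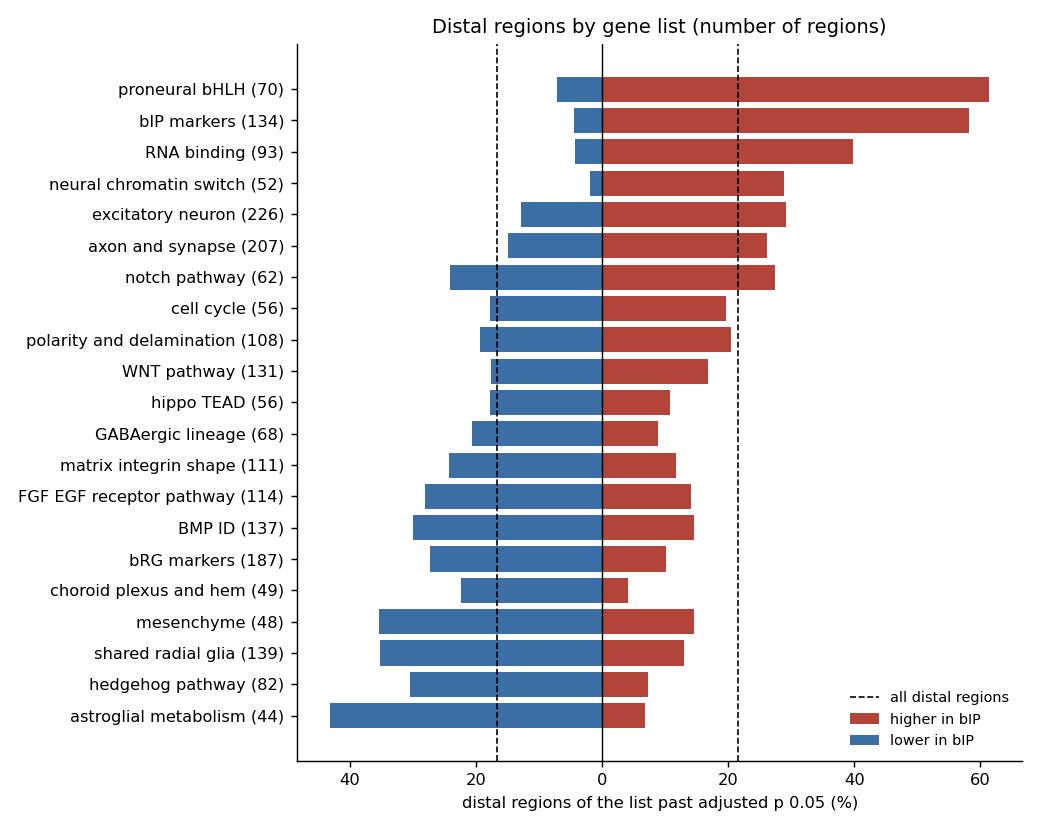
Share of distal regions past an adjusted p of 0.05 for gene lists with at least 40 distal regions, higher in bIP to the right and lower to the left, with the number of regions in brackets. Dashed lines mark all distal regions (21.5% and 16.7%). Proneural bHLH genes (61.4% higher) and astroglial metabolism genes (43.2% lower) lie at the ends.

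Across protein-coding promoters without overlap and with at least 10 CPM in the higher group, the 8 largest increases were at WNT5A, KRTAP16-1, SLC5A10, KRTAP29-1, EIF4E1B, APOBEC4, NHLH1 and MYT1L. SLC5A10, a sugar transporter, had 17.7, 21.8, 16.8, 25.2 and 35.1 CPM in bIP, against 2.22 and 2.30 CPM in bRG (chr5:57370483-57371867; log2 3.51 ± 0.39, adjusted p = 2.1e-07), and N averaged 7.18 ± 2.52 CPM. It was higher in bIP than in N (log2 −1.68 ± 0.25 for N over bIP, adjusted p = 3.1e-06). EIF4E1B, a relative of the cap-binding protein, had 19.3, 16.6, 15.9, 22.7 and 23.6 CPM in bIP, against 2.33 and 2.53 CPM in bRG (log2 3.28 ± 0.33, adjusted p = 9.0e-08). APOBEC4, a member of the deaminase family, had 21.0, 19.7, 19.2, 26.7 and 31.7 CPM in bIP, against 2.88 and 3.23 CPM in bRG (log2 3.22 ± 0.35, adjusted p = 1.6e-07). KRTAP16-1 and KRTAP29-1, keratin-associated protein genes, have neighbouring regions (chr5:40652460-40654156 and chr5:40658941-40660437). KRTAP16-1 had 5.11, 4.72, 4.30, 16.4 and 23.9 CPM in bIP, against 0.910 and 1.12 CPM in bRG and KRTAP29-1 had 13, 13.1, 7.49, 24.2 and 33.5 CPM in bIP, against 1.97 and 2.11 CPM in bRG, and at both bIP replicates 4 and 5 were above replicates 1 to 3. Their log2 differences were 3.79 ± 0.49 and 3.45 ± 0.50 (adjusted p = 1.4e-06 and 5.8e-06), and 4.30 and 3.82 within the second series.

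The 8 largest decreases were at TXK, ANGPTL1, CYP2C8, BBOX1, KBTBD12, A2ML1, VCAM1 and PREP, with log2 differences of −2.73 to −2.16. TXK, a tyrosine kinase, had 3.78, 3.24, 2.36, 2.56 and 0.628 CPM in bIP, against 13.4 and 11.5 CPM in bRG (chr4:48040848-48041833; log2 −2.73 ± 0.34, adjusted p = 9.0e-07). ANGPTL1, a secreted angiopoietin-like protein, had 8.36, 7.18, 6.80, 4.29 and 1.55 CPM in bIP, against 23.9 and 22.7 CPM in bRG (log2 −2.64 ± 0.33, adjusted p = 8.4e-07). At both genes bIP replicate 5 was the lowest library. ANGPTL1 averaged 1.83 ± 0.547 CPM in N, below bIP (log2 −1.42 ± 0.29, adjusted p = 0.000142), and 37.6 ± 12.4 CPM in aRG. A2ML1, a protease inhibitor, had 5.49, 5.18, 3.95, 4.60 and 3.04 CPM in bIP, against 19.3 and 21.1 CPM in bRG (log2 −2.33 ± 0.23, adjusted p = 8.2e-08). CYP2C8, a cytochrome P450, had 2.27, 2.07, 0.971, 3.58 and 0.676 CPM in bIP, against 13.1 and 13.5 CPM in bRG, KBTBD12 had 3.93, 3.43, 4.65, 2.92 and 2.17 CPM in bIP, against 17.4 and 12.3 CPM in bRG and PREP, a prolyl peptidase, had 1.70, 1.68, 2.71, 2.78 and 1.74 CPM in bIP, against 14.3 and 11.3 CPM in bRG.

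By absolute CPM the largest promoter gains besides MYT1L, EOMES and DLL3 were at SRRM4, KIF21B and SORBS2. SRRM4, the splicing factor of neuronal microexons, had 57.1, 58.3, 45.9, 66.9 and 72.3 CPM in bIP, against 17.6 and 15.4 CPM in bRG (log2 1.93 ± 0.24, adjusted p = 7.2e-07). KIF21B, a neuronal kinesin, had 58.0, 57.4, 46.3, 67.4 and 86.6 CPM in bIP, against 28.5 and 25.3 CPM in bRG (log2 1.36 ± 0.23, adjusted p = 3.6e-05). SORBS2, an adaptor of the actin skeleton, had 45.0, 43.5, 38.9, 49.0 and 60.5 CPM in bIP, against 13.5 and 12.3 CPM in bRG (log2 1.99 ± 0.23, adjusted p = 3.6e-07). All 3 had some accessibility in bRG already.

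The largest losses by CPM besides VIM and FGFR2 were at LMO3, FST, SMAD3 and OR5A2. LMO3, a LIM-only transcriptional cofactor, had 29.1, 26.8, 21.4, 32.4 and 23.3 CPM in bIP, against 66.4 and 60.4 CPM in bRG (log2 −1.23 ± 0.22, adjusted p = 6.3e-05). SMAD3, which carries TGF-beta and activin signals, had 22.3, 19.9, 14.8, 18.3 and 18.4 CPM in bIP, against 49.2 and 46.7 CPM in bRG (log2 −1.32 ± 0.20, adjusted p = 7.3e-06). FST, follistatin, which binds activin, had 24.5, 23.0, 22.0, 37.7 and 32.3 CPM in bIP, against 62.6 and 53.5 CPM in bRG (log2 −0.86 ± 0.20, adjusted p = 0.00112). OR5A2, an olfactory receptor gene, had 15.4, 14.2, 10.9, 12.2 and 5.94 CPM in bIP, against 40.9 and 35.5 CPM in bRG (log2 −1.93 ± 0.26, adjusted p = 2.3e-06), and N averaged 3.23 ± 0.439 CPM.

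Some genes gathered many changed distal regions. SARDH, a mitochondrial sarcosine dehydrogenase, had 23 of 26 distal regions higher, and they summed to 148, 149, 154, 201 and 245 CPM in bIP, against 67.0 and 68.5 CPM in bRG. CLSTN2, a synaptic calsyntenin, had 23 of 36 higher and 2 lower, but its sums of 138, 129.8, 121, 198 and 226 CPM in bIP, against 122 and 119 CPM in bRG overlapped at bIP replicate 3. NAA11, an N-terminal acetyltransferase, had 21 of 30 higher, with sums of 217, 205, 229, 270.3 and 268 CPM in bIP, against 63.9 and 67.4 CPM in bRG. CORO2B, an actin-binding coronin, had 19 of 28 higher, RBFOX3 19 of 37 and CPLX2, a complexin of synaptic release, 17 of 21. At CORO2B and CLSTN2 the promoter did not pass (log2 0.26 and −0.10, adjusted p = 0.398 and 0.777).

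In the other direction ALCAM, an adhesion molecule of growing axons, had 19 of 35 distal regions lower and 1 higher, with sums of 84.4, 75.7, 72.6, 71.8 and 60.2 CPM in bIP, against 169.9 and 162 CPM in bRG. Its promoter did not pass (log2 −0.11 ± 0.20, adjusted p = 0.736). TMEM132B had 18 of 25 lower and 1 higher. ESRRG, an orphan nuclear receptor, had 19 of 41 lower and 4 higher, and NPAS3, a bHLH factor of neural progenitors, 16 of 39 lower and 2 higher. The NPAS3 regions summed to 141, 133, 139.9, 178 and 156 CPM in bIP, against 271 and 258 CPM in bRG, while its promoter differed by log2 0.03 ± 0.21 (adjusted p = 0.932). FOXC1, a forkhead factor of mesenchyme, had 16 of 34 lower and 3 higher. Also ROBO2, an axon guidance receptor, had 10 of 36 distal regions lower, its promoter at log2 0.11 (adjusted p = 0.731).

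**Figure D4:**
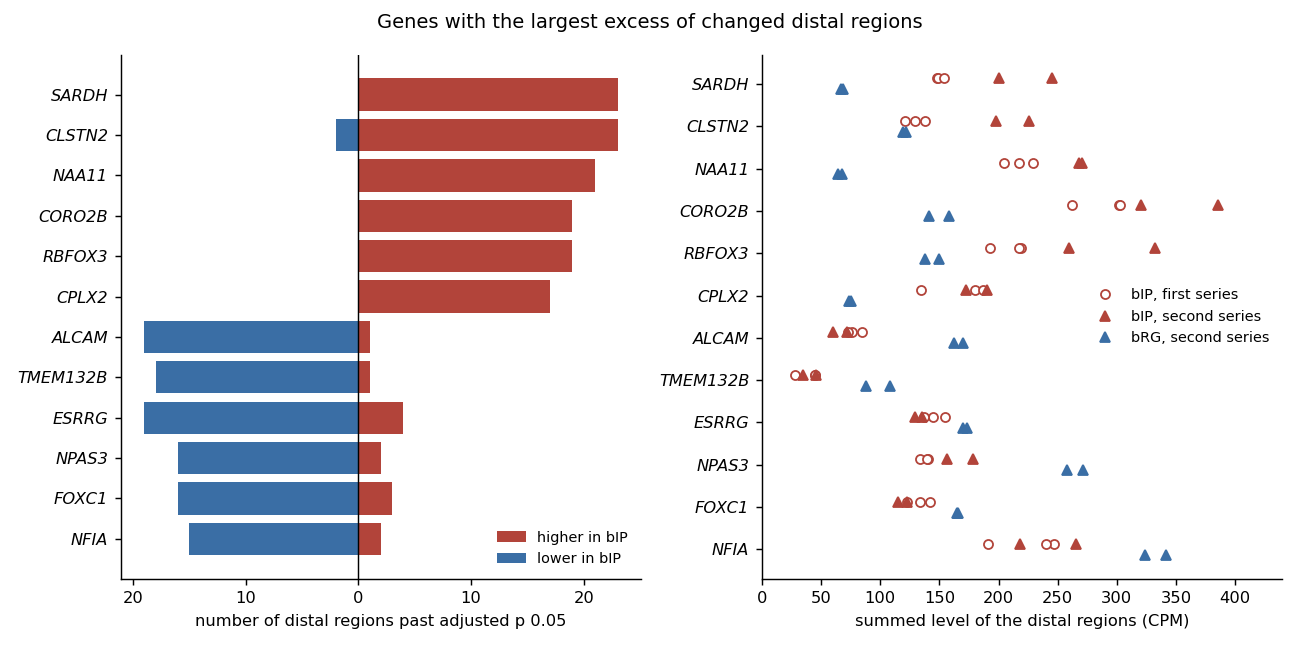
The 6 protein-coding genes with the largest excess of higher over lower distal regions in bIP and the 6 with the largest excess the other way. Left: number of distal regions past an adjusted p of 0.05. Right: summed CPM of all distal regions of the gene in each bIP (red) and bRG (blue) library, open circles for the first series and triangles for the second. For SARDH the bIP sums lie between 148 and 245 CPM and the bRG sums at 67.0 and 68.5 CPM.

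The distal regions with the largest differences nearly switched between groups. The top increase lay 23652 bp from RN7SKP112, a non-coding gene copy (chr2A:23252808-23254808), with 9.27, 11.3, 10.8, 9.46 and 16.7 CPM in bIP, against 0.607 and 0.796 CPM in bRG (log2 4.36 ± 0.38, adjusted p = 3.8e-08). The next lay near AC087521.2, AC109642.1 and LINC02129, by 4.34, 4.31 and 4.22 on the log2 scale (adjusted p = 8.0e-08, 7.8e-08 and 2.3e-08). The top decrease (chr6:6144402-6145463), 37437 bp from MIR7853, had 2.12, 2.39, 1.39, 0.840 and 0.483 CPM in bIP, against 16.4 and 10.6 CPM in bRG (log2 −3.83 ± 0.32, adjusted p = 3.5e-08). Others near LINC02149, MIR1273H and AC108099.1 differed by −3.71, −3.68 and −3.54 (adjusted p = 5.7e-07, 3.3e-08 and 7.1e-08). In the 4 regions that fell, bIP replicate 5 was the lowest library each time. Names of these closest genes give position only.

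Some markers of other cell types were lower in bIP as well. Summed over 8 measured promoters, mesenchyme genes had 39.7 to 66.4 CPM in bIP and 80.2 to 80.5 CPM in bRG, with 3 lower in bIP. FOXC2 had 2.08, 1.75, 0.971, 2.65 and 1.84 CPM in bIP, against 4.90 and 5.90 CPM in bRG (log2 −1.31 ± 0.28, adjusted p = 0.000481), FOXC1 had 6.70, 5.95, 4.93, 6.36 and 9.61 CPM in bIP, against 13.6 and 12.5 CPM in bRG (log2 −0.89 ± 0.24, adjusted p = 0.00512) and COL1A1, a collagen chain, had 13.3, 11.7, 9.92, 15.9 and 15.6 CPM in bIP, against 23.3 and 24.4 CPM in bRG (log2 −0.73 ± 0.20, adjusted p = 0.00488). Choroid plexus and hem genes summed to 49.1 to 67.4 CPM in bIP and 83.0 to 84.2 CPM in bRG over 8 promoters, with 3 lower. KCNJ13, a potassium channel of the choroid plexus, had 1.59, 1.75, 1.39, 1.33 and 0.725 CPM in bIP, against 3.79 and 5.11 CPM in bRG (log2 −1.99 ± 0.33, adjusted p = 2.7e-05), OTX2, a homeodomain factor, had 2.88, 3.11, 3.12, 4.38 and 4.25 CPM in bIP, against 8.75 and 7.07 CPM in bRG (log2 −0.85 ± 0.23, adjusted p = 0.00361) and MSX2, a homeodomain factor of the dorsal midline, had 22.7, 21.7, 18.9, 20.1 and 18.4 CPM in bIP, against 26.8 and 25.6 CPM in bRG (log2 −0.56 ± 0.20, adjusted p = 0.0295). COL3A1 and DCN of the mesenchyme list and TTR, WNT8B and HTR2C of the choroid plexus list have no promoter region listed. The part of such cells in the radial glia results was not tested. The threshold was missed without bRG replicate 1 for FOXC1 (0.0622), OTX2 (0.0902) and MSX2 (0.171), without bRG replicate 2 for COL1A1 (0.0566) and MSX2 (0.113) and within the second series alone for FOXC1 (0.0639), COL1A1 (0.074) and MSX2 (0.194).

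GABAergic lineage genes had 1 higher and 1 lower of 13 measured promoters. GAD1, the enzyme that makes GABA, had 20.8, 19.8, 22.2, 23.8 and 29.8 CPM in bIP, against 14.8 and 15.6 CPM in bRG (log2 0.72 ± 0.20, adjusted p = 0.00602) and NPY, a neuropeptide of interneurons, had 13.1, 12.9, 7.56, 9.19 and 8.40 CPM in bIP, against 24.8 and 17.2 CPM in bRG (log2 −1.30 ± 0.23, adjusted p = 8.1e-05). Of 6 oligodendrocyte lineage promoters 1 was lower, CSPG4, a proteoglycan of precursor cells, by 0.53 ± 0.21 on the log2 scale (adjusted p = 0.0477). Of 4 blood and vessel promoters KDR fell by 1.10 ± 0.27 and TIE1, at under 2 CPM in every library, rose by 1.40 ± 0.39 (adjusted p = 0.00217 and 0.00499). DPPA4, 1 of 2 measured pluripotency promoters, had 0.719, 1.23, 1.25, 1.46 and 1.30 CPM in bIP, against 3.13 and 2.81 CPM in bRG (log2 −0.93 ± 0.34, adjusted p = 0.0319). An adjusted p above 0.05 was found without bIP replicate 1 for CSPG4 (0.0736) and DPPA4 (0.0544), without bIP replicate 2 for CSPG4 (0.0707), without bIP replicate 3 for CSPG4 (0.0573), without bIP replicate 4 for DPPA4 (0.0536), without bIP replicate 5 for DPPA4 (0.112), without bRG replicate 1 for GAD1 (0.079), CSPG4 (0.223), TIE1 (0.0804) and DPPA4 (0.171), without bRG replicate 2 for CSPG4 (0.15) and DPPA4 (0.0903) and within the second series alone for CSPG4 (0.24). Of 5 housekeeping promoters none was called by edgeR or DESeq2 or had an unadjusted p under 0.05, with a median log2 difference of 0.02.

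**Figure D5:**
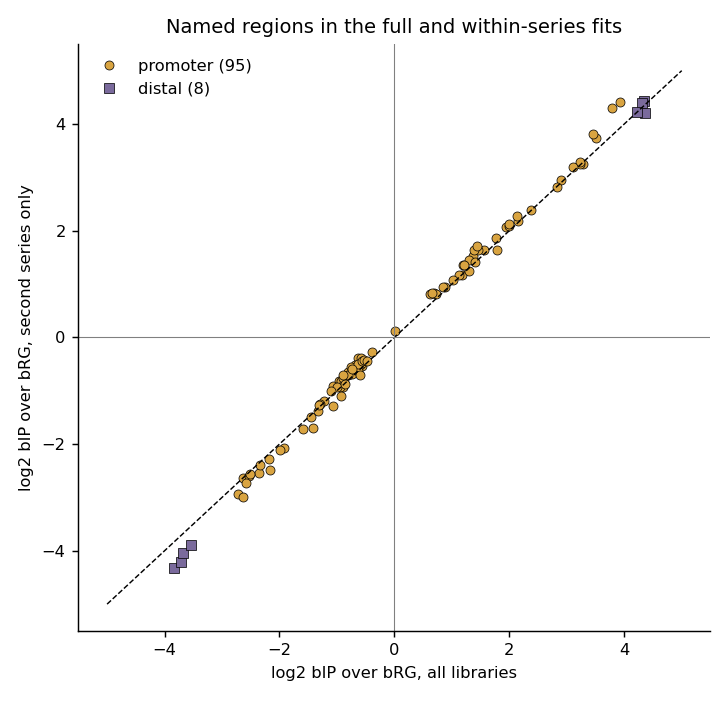
Log2 difference of bIP over bRG at the 103 named regions, 95 promoters (circles) and 8 distal regions (squares), from all libraries (x axis) and from the second library series alone (y axis). The dashed line marks equal values. All points keep their sign between both fits.

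The authors' consensus peak sets, 1 per cell type, were compared as well. Of 71389 distinct bIP peaks 67.4% overlapped a bRG peak by at least 1 bp, and of 72155 bRG peaks 67.0% overlapped a bIP peak. Among regions called higher, off chromosomes 2A and 2B that the peak sets do not list, 47.5% were touched by a bIP peak alone, 20.1% by peaks of both and 0.178% by a bRG peak alone. Among regions called lower, 0.0571% were touched by a bIP peak alone, 20.8% by both and 51.2% by a bRG peak alone. No peak of either set touched 32.2% of the higher, 27.9% of the lower and 63.6% of the regions not called. Of those not called, 3.25% were touched by a bIP peak alone, 5.76% by a bRG peak alone and 27.4% by both. Peaks and counts come from the same libraries, so the sets are no independent support for the calls. Table positions start exactly where peaks start at 16969 regions, and at 419 regions after a shift of 1 bp, and the peaks were therefore taken as gorGor6 positions.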

How the data were processed

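Bulk ATAC-seq of sorted gorilla organoid cells was analysed from 14 libraries. The authors deposited a table of whole-number read counts per region, not normalized, and 1 consensus peak set per cell type with, per the file headers' narrowPeak layout, a −log10 q-value that was used here for a stricter set. The submitters' processing notes, per the labels, name MACS2 and bcl2fastq 2.20.0, and panTro6 and hg38 as builds. Not given in the sources used here are the aligner, the read counter and whether reads were shifted for the transposase. Per the file headers the table names each region in gorGor6, and coordinates are gorGor6 positions counted from 1. The closest gene and its distance are the authors'. They are missing exactly for the 2847 regions without a human position, and the point from which the distance is measured is not stated.

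Of 218080 regions, 13823 without a gorilla position (all counts 0) and 8 repeats were left out, leaving 204249. Counts were fitted with edgeR 4.0.16 (R 4.3.3): TMM scaling, filterByExpr (200931 regions), group means plus library series over all 14 libraries (9 residual degrees of freedom), quasi-likelihood F tests of bIP minus bRG, and Benjamini-Hochberg adjustment over all regions, threshold 0.05. All adjusted p-values come from this test. Log2 differences are bIP over bRG with SE. Levels are CPM with TMM factors in the order of replicates 1 to 5 (bIP) and 1 and 2 (bRG), with 3 counts worth 0.114 to 0.208 CPM in bIP and 0.141 to 0.152 CPM in bRG. Floors cover counting error only. The fit was tested on simulated data, with the same dispersion for all regions, no series effect and regions of low count left out. There 46% of regions with a true fold of 2 and 42% with a true fold of 0.5 were called. For true folds of 4 and 0.25 the shares were 100% and 92%, and without a change 0.03%. A region that did not pass may therefore still differ.

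A promoter region is listed within 1000 bp of its gene, and for a list gene the one with the highest mean count was used. A protein-coding symbol in RefSeq was found for 12952 of 39300 gene names (NHGRI_mGorGor1-v2.1_pri), used for names only. Named regions were the 8 promoters up and down with the largest log2 difference (at least 10 CPM in the higher group, no overlap), the 6 with the largest CPM difference, 6 genes with the largest excess of changed distal regions, 4 distal regions each way, up to 5 called genes a list by smallest p, and fixed anchor genes. Members and lists were chosen with earlier results of these data known. Alternatives were other scalings, DESeq2 1.42.0, other filters, no series term, the second series alone, the 2 groups alone, a replicate block, summed closest pairs, other promoter limits and each library left out. Peak sets were compared with bedtools 2.31.1. Gene structure and DNA sequence were not used here.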

Additional observations from a re-analysis of the deposited data

Results flagged for a closer look

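In 7 of the 103 named regions 1 bIP library stood apart from the other 4 by Dixon's criterion at the 95% level, which chance alone meets in about 1 of 20 groups. Replicate 5 was the library in 6 of them. At the STMN2 promoter it had 57.5 CPM, against 32.0 to 34.6 CPM in the other bIP libraries. At LAMB1 it had 28.7 CPM, against 17.6 to 20.02 CPM, and at PPP1R17 13.9 CPM, against 9.28 to 10.1 CPM. Among distal regions it had 16.7 CPM near RN7SKP112, against 9.27 to 11.3 CPM, and 17.1 CPM near AC087521.2, against 12.1 to 12.9 CPM. Near AC108099.1, where bIP was lower than bRG, it had 0.531 CPM, against 2.34 to 3.05 CPM. In each of these 6, replicate 5 lay further from bRG than the other bIP libraries did. Replicate 3 was set apart once, at MKI67, with 10.2 CPM, against 13.4 to 14.6 CPM. The cause was not tested.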

How the results depend on the processing

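With at least 10 CPM in 2 libraries, fewer regions were tested, and 12899 were higher and 13089 lower in bIP (promoters 1109 and 3438, distal regions 11628 and 9460). With no filter the counts were 37246 and 37302. Loess offsets gave 3665 lower promoters. With bIP and bRG libraries alone 3768 promoters were higher, and with a limit of 2000 bp 3407. Leaving out 1 library gave 28701 to 40694 higher and 21164 to 33064 lower regions, for promoters 1437 to 2305 and 1192 to 2184, for distal regions 26862 to 37803 and 19598 to 30320, with the lowest count of each without bRG replicate 1. Library totals in place of TMM moved the median of all regions by −0.11 on the log2 scale. With an overlap of at least 50% of the peak, 64.3% of bIP and 65.8% of bRG peaks were shared. The causes were not tested.

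Replicate numbers are shared by 2 pairs of bIP and bRG libraries, whose deviations from their group means correlated by 0.166 and −0.164. With 2 bRG libraries these deviations mirror each other, so the values cannot tell whether the pairs share more than a number. With the replicate number as a block 5303 regions were higher and 596 lower (promoters 293 and 25, distal regions 4943 and 564), and PAX6 (log2 0.19), AURKB (0.0103) and S100B (0.10) changed sign, as did SOX2, whose call varied among the alternatives.

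Of 99 named regions past the threshold, 34 missed it without at least 1 library and 18 within the second series. With the replicate number as a block 68 of the 103 named regions lost their call, 32 stayed the same, and 3 called ones changed sign. Under the other alternatives no named region changed direction except PTPRZ1, which passed in none. At 0.114 to 0.208 CPM for 3 counts, differences at promoters under 1 CPM were close to the limit of detection.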

Other observations

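Chromosomes differed in their shares of changed regions. On chromosome 20, 27.6% of regions were higher and 12.6% lower in bIP, on chromosome 22, 26.9% and 9.63%, and on chromosome 19, 18.4% and 7.85%, against 20.4% and 16.1% of all regions. Within the second series the shares were 26.8% and 11.9% on chromosome 20, 26.3% and 7.75% on chromosome 22 and 18.8% and 6.29% on chromosome 19. Promoters made 28.2% of the regions of chromosome 19, against 11.1% on chromosome 20 and 14.6% on chromosome 22. In the full fit, 23.4% of the distal regions of chromosome 19 were higher and 8.97% lower, against 21.5% and 16.7% of all distal regions.

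A group of 4 regions without a human position were among those with the highest counts of the table and were lower in both bRG libraries than in all others. The largest (chr3:78734681-78737112, 2432 bp) had 1888, 1991, 4768, 1424 and 1638 CPM in bIP, against 215 and 429.9 CPM in bRG. It had 873 to 2500.4 CPM in N and 1477 to 2220.1 CPM in aRG. The others (chr3:78740748-78742692, chr9:74881480-74883297 and chr9:27205440-27206432) held 0.429 to 0.481, 0.190 to 0.253 and 0.0929 to 0.107 of its count in every library, so the 4 moved together. They held 0.0377% to 0.961% of a library's counts.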
